A study of Mus musculus with 4 samples.

Results

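A set of 50 genes that carry cells through mitosis and cytokinesis was chosen by name out of the 18702 genes measured in each library of embryonic mouse eye. All 50 were listed in every library and all passed the filter on low values, a mean of at least 1 FPKM (fragments per kilobase of transcript, scaled to the fragments of the library). Their mean levels ran from 10.7 FPKM for Espl1 to 101.0 FPKM for Top2a. RNA sequencing of total RNA had been done on eye tissue of C57BL/6 embryos in 4 libraries, 2 labelled wild type (Anp32b+/+) and 2 labelled knockout (Anp32b-/-). The title of the series ties loss of ANP32B, an acidic nuclear phosphoprotein that binds histones, to Pax6 and to growth of the eye. The sources used here do not give the construction of the allele, the stage or sex of the embryos, or how many were pooled in a library. The labels also do not say whether replicate libraries stem from different embryos. The p-values therefore cover the spread between libraries, which may be technical, and no more.

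Mitosis begins when CDK1, bound to cyclin A or cyclin B, phosphorylates many nuclear and cytoskeletal proteins. Condensin compacts the chromosomes, the kinetochore ties each one to spindle microtubules, and the spindle checkpoint holds back the anaphase-promoting complex (APC/C) until every chromosome is attached. The APC/C then marks cyclin B and securin for destruction, sister chromatids part, and a contractile ring at the midzone divides the cell. Most of these genes are transcribed late in the cell cycle and shut off in resting cells, so in a developing eye they mark dividing progenitors of the retina, the lens epithelium and the surrounding mesenchyme.

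The deposited values place each library at about 18080000 to 18330000 fragments, so that 1 FPKM over 1 kilobase stood for about 18.1 to 18.3 fragments. Anp32b itself had 163.18 and 179.12 FPKM in the wild type against 94.53 and 92.67 FPKM in the knockout. Which exons were deleted is not stated, so this value over the whole gene only shows that the labels and the gene's level go the same way. Of 13887 genes tested, 4654 were higher in the knockout and 2932 lower. The tissue markers were present in all libraries, but the makeup differed. Crystallins, the proteins of the lens, summed to at least 14.9% of all FPKM in each wild-type library and to 1.43% in each knockout library, and skeletal muscle and mesenchyme genes were higher in the knockout.

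The mitotic genes were lower in the knockout as a group. Of the 50, 46 fell and 0 rose at a limma adjusted p under 0.05, whereas 54.6% of all genes tested were called, 21.1% as lower and 33.5% as higher. In 49 of the 50 both knockout values lay below both wild-type values, a pattern seen in 32.4% of all genes tested. Anln was the exception. The median log2 fold change over the members was −0.35, on the log2(FPKM + 1) scale used throughout, beside a median of 0.04 over all genes tested. In untransformed FPKM the knockout mean ran from 65.4% of the wild-type mean for Spc25 to 98.6% for Anln, with a median of 77.9%. Of the members, 5 fell by more than 0.5, 35 lay between −0.5 and −0.25, and 10 lay closer to 0. The gap between replicates had a median of 2.26% of the group mean in the wild type and 2.30% in the knockout, and its largest values were 7.55% for Ndc80 in the wild type and 10.1% for Cks2 in the knockout. In whole tissue, fewer dividing cells and less of each transcript per dividing cell cannot be told apart.

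Library scaling moved the members and all other genes together. With the deposited TPM values, in which every library sums to the same total, the median over all genes tested moved from 0.04 to 0.16 and that over the members from −0.35 to −0.24. On that scale 41 members were lower and 0 higher, beside 12% of all genes lower. The calls of Aurka, Bub3, Cdc20, Kif20a and Ube2c were lost. With libraries rescaled without crystallin and erythroid genes 49 members were lower, beside 31.2% of all genes. The calls gained were those of Hmmr, Plk1 and Pttg1. With median-of-ratios scaling 47 were lower, beside 26.5% of all genes. A factor per library shifts nearly all log values alike, so by construction the distance between the median of the members and that of all genes, −0.39, was the same on each of these scales and is no sign of stability.

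**Figure D1:**
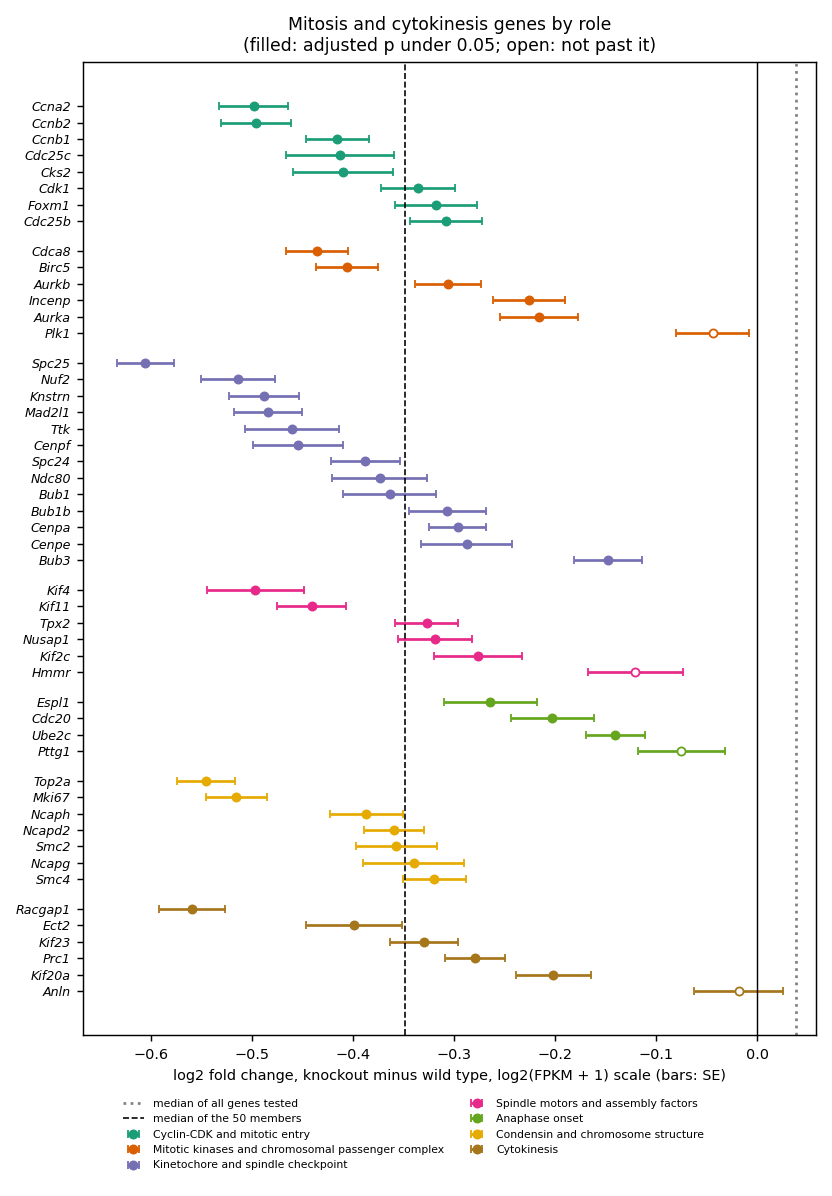
Log2 fold change (knockout minus wild type, log2(FPKM + 1) scale, horizontal axis) of the 50 members, grouped by role; bars are standard errors of the limma fit with 2 libraries in each group, and filled points passed an adjusted p of 0.05. All points lie left of 0, from Spc25 at −0.61 to Anln at −0.02, and the 4 open points are Plk1, Hmmr, Pttg1 and Anln.

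Promoter sequences were compared because many mitotic promoters are known to share a pair of elements. The shares of genes with each element use no expression value and do not bear on the knockout. The CCAAT box is bound by the factor NF-Y, and the cell cycle genes homology region (CHR) is bound by MuvB complexes, which pair with B-MYB and FOXM1 when these genes are active and with E2F4 and p130 when they are silent. Windows of 300 bases, from 250 before to 50 after the transcript start, were taken from the RefSeq table of GRCm38, which held 41 of the 50 members. Shown first are the windows of the 3 members with the lowest log2 fold changes, then those of the 4 that did not pass the test. Letters in capitals are CCAAT, also where it reads ATTGG on the other strand, and the CHR letters TTTGAA, also where they read TTCAAA on the other strand.
Spc25: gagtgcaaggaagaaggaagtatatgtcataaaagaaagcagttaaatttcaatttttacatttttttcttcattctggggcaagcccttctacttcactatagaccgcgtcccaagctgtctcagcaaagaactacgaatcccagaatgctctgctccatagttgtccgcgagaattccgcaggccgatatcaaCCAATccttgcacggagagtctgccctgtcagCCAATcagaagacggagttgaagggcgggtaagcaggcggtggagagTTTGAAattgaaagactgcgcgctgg
Racgap1: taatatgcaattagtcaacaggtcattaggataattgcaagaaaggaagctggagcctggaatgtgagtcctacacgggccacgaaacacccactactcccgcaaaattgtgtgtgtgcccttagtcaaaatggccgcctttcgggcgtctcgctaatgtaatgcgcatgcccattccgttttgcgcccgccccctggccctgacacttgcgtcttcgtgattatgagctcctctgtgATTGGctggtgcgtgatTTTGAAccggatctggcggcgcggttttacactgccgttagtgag
Top2a: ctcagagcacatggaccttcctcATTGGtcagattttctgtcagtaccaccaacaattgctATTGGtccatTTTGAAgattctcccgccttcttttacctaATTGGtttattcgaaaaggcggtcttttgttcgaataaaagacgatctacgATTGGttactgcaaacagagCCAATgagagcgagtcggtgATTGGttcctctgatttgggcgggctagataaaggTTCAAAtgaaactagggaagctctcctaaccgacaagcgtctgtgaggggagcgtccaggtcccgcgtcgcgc
Plk1: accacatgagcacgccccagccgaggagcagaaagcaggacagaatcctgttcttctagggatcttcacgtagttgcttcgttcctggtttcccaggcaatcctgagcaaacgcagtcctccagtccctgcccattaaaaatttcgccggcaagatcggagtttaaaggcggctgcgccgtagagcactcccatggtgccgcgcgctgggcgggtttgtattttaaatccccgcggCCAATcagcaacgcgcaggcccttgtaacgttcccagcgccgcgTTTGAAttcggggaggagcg
Hmmr: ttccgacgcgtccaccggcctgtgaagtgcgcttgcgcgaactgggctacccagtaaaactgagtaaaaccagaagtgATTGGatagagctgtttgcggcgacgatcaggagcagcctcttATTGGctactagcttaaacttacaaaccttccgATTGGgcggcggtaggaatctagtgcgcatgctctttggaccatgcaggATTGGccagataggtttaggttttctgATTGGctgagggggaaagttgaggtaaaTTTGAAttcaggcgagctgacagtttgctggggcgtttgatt
Pttg1: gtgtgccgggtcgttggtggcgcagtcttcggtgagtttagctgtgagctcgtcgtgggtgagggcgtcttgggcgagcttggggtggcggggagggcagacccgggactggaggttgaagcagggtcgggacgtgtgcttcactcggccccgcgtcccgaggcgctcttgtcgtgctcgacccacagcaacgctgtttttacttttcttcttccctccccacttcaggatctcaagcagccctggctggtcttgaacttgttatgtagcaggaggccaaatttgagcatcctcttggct
Anln: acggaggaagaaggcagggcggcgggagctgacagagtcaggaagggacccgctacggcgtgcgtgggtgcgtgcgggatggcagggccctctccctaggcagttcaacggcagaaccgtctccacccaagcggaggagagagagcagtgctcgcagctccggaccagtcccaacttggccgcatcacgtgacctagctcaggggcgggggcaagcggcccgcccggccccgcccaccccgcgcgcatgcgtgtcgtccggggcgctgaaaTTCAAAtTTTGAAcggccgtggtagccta
The Spc25 window is chr2:69206164-69206463, that of Racgap1 chr15:99651607-99651906 and that of Top2a chr11:99024140-99024439, all on the minus strand. The Plk1 window is chr7:122159185-122159484 on the plus strand. Those of Hmmr, chr11:40733388-40733687, of Pttg1, chr11:43425932-43426231, and of Anln, chr9:22389157-22389456, are on the minus strand.

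Both elements were common in the members' windows. CCAAT in either orientation was present in 31 of the 41 members (75.6%), and in 42.4% of the 14755 genes of the tables with a RefSeq window. The CHR letters were present in 29 of 41 (70.7%), against 15.7% of all those genes, and both together in 26 of 41 (63.4%), against 6.53%. Within 50 bases of the start, a distance chosen after the positions were seen, the CHR letters began in 26 of 41 members (63.4%) and in 3.75% of the 14714 other genes. In 1 window, that of Cdca8, the 2 kinds of match overlapped. Windows with matches and windows without occurred among both larger and smaller changes. Whether matches go with the size of the change was not tested, and 9 members had no window. Among the 4 genes that did not pass the test, Plk1 had 1 match of each kind, Hmmr had 5 CCAAT matches and 1 CHR match, Anln had 2 CHR matches, and Pttg1 had no match. The Pttg1 window lies wholly inside the gene as annotated by GENCODE, so its lack of matches says little about the sequence upstream of the gene. The windows of Cdca8, Kif2c and Kif4, and 1 of the 2 of Bub3, also lie inside the annotated gene. That of Mad2l1 ends before the annotated start of the gene, so its lack of matches says little as well. Spc25, with 2 CCAAT matches and 1 CHR match, had the lowest log2 fold change of all, whereas Nuf2, Knstrn and Mad2l1 fell by 0.48 to 0.51 with no match in the window. These are matches of letters and do not show binding.

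**Figure D2:**
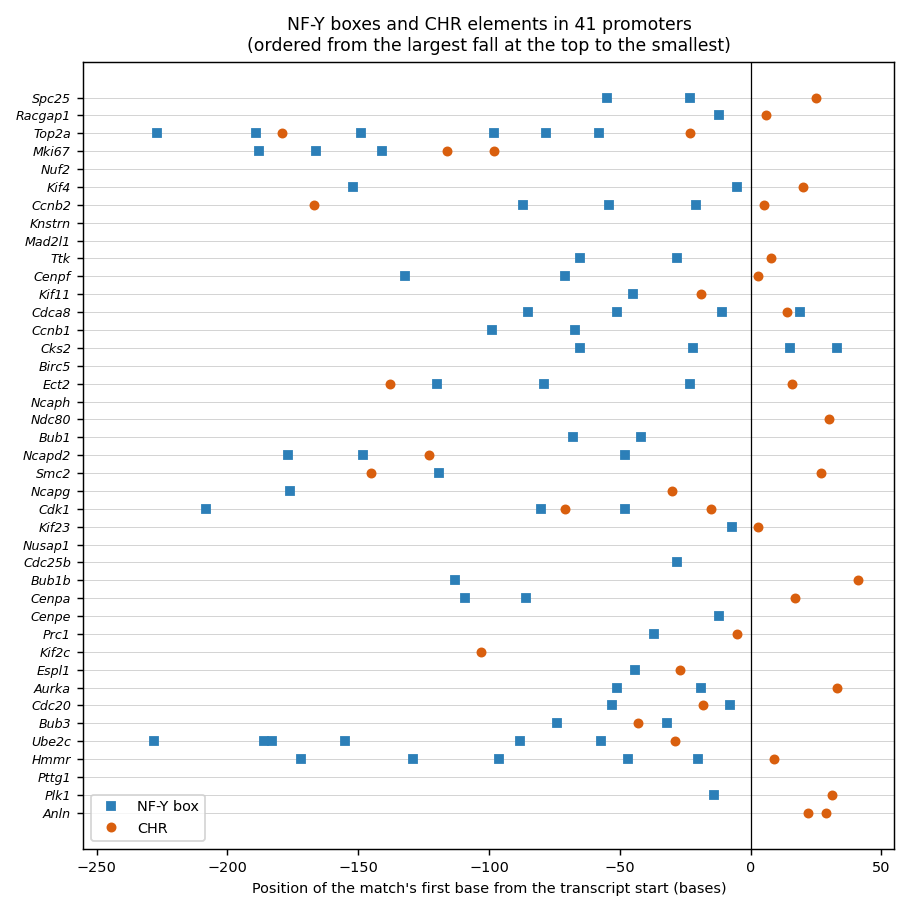
Positions of CCAAT (NF-Y) boxes and CHR letters, as bases from the transcript start (horizontal axis), in the windows of 41 members ordered from the lowest log2 fold change at the top; for the 3 members with 2 windows the one of lower coordinate is drawn. Most CHR matches lie within 50 bases of the start, in rows at the top and at the bottom alike.

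Cyclins, CDK1 and their regulators fell without exception. All 8 members of this role were lower, with a median log2 fold change of −0.41 and a range from −0.50 to −0.31, and all 8 were also lower with TPM. Cdk1 (GRCm38 chromosome 10, positions 69335146 to 69352938, minus strand), the kinase that starts mitosis, was at 22.38 and 22.44 FPKM in the wild type and at 17.44 and 17.66 FPKM in the knockout. The knockout mean was thus 78.3% of the wild-type mean and the groups did not overlap, with a log2 fold change of −0.34 (SE 0.04, limma adjusted p = 0.000291). Ccna2, the cyclin A of somatic cells, had 72.22 and 69.18 FPKM in the wild type against 50.39 and 49.12 FPKM in the knockout, a log2 fold change of −0.50 (adjusted p = 3.55e-05). Its neighbour Exosc9 on the opposite strand shares 12.5% of the exonic bases of Ccna2, and Exosc9 was lower too (−0.23). Ccnb1, cyclin B1, went from 47.76 and 48.65 FPKM to 35.92 and 35.87 FPKM (−0.42, adjusted p = 5.09e-05). Its 3 processed pseudogenes, Ccnb1-ps, Gm12856 and Gm8416, match the transcript at 97.3% to 99.2% identity over 1287 to 1294 bases, so reads may have been divided among copies. The second B-type cyclin, Ccnb2, fell by 0.50.

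The rest of the role lay within the same range. Cks2, a small CDK-binding subunit, was the most abundant gene of the role, at 75.45 and 72.95 FPKM in the wild type and at 58.49 and 52.87 FPKM in the knockout (−0.41, adjusted p = 0.000484). Here the knockout libraries lay further apart than for any other member, and 3 pseudogenes match 240 bases of the transcript at 98.3% identity or more. Cdc25b, the phosphatase that activates CDK1 at mitotic entry, had 32.89 and 32.12 FPKM in the wild type and 25.65 and 26.48 FPKM in the knockout. Its log2 fold change of −0.31 was the smallest of the role, and its relative Cdc25c was at −0.41. Foxm1, the forkhead factor that drives many G2 and M genes, had 30.87 and 30.85 FPKM in the wild type. Its knockout values were 23.79 and 25.36 FPKM (−0.32, adjusted p = 0.000642).

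**Figure D3:**
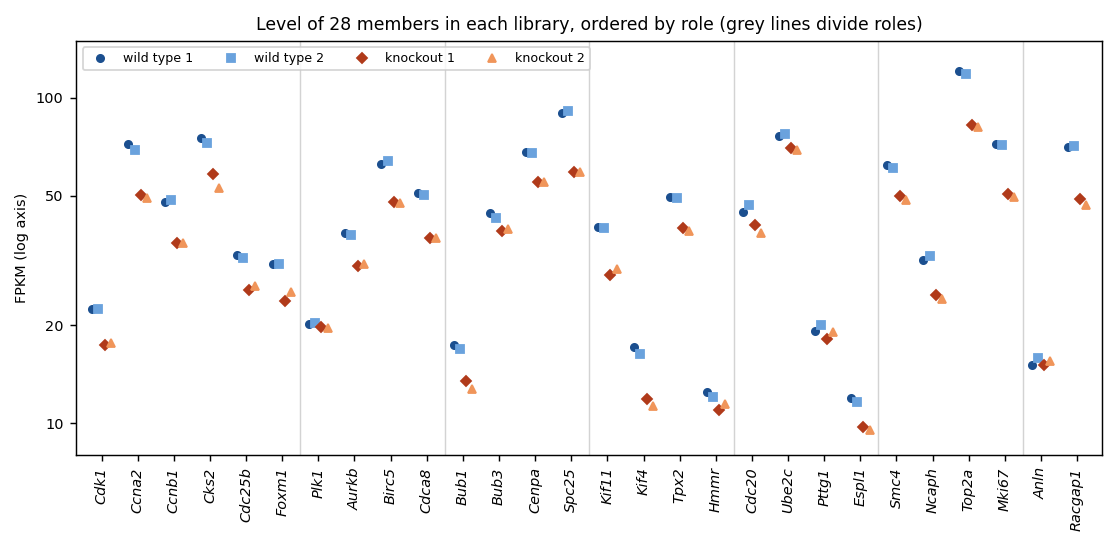
FPKM (vertical log axis) of 28 members in each of the 4 libraries, ordered by role, with 1 symbol per library and no averaging. The wild-type symbols sit above the knockout symbols for every gene drawn except Anln, and the gap is narrow for Plk1, Hmmr, Ube2c and Pttg1.

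Among the mitotic kinases and the chromosomal passenger complex, which corrects faulty attachments and later helps to place the cleavage furrow, 5 of 6 members fell and the median was −0.27. Plk1 was the sixth. This polo-like kinase, which acts from centrosome maturation to cytokinesis, was at 20.18 and 20.40 FPKM in the wild type and at 19.70 and 19.59 FPKM in the knockout. The groups did not overlap, but the log2 fold change of −0.04 (SE 0.04) did not pass the test (adjusted p = 0.336). With TPM its sign turned (0.07, adjusted p = 0.152). With libraries rescaled without crystallin and erythroid genes Plk1 was called lower (−0.12, limma adjusted p = 0.0313), so its direction and call depended on scaling. The 4 passenger genes were all lower, with a median of −0.36. Cdca8, which encodes borealin, fell from 50.92 and 50.20 FPKM to 37.15 and 37.11 FPKM (−0.44, adjusted p = 3.8e-05). Birc5, which encodes survivin, had 62.63 and 64.15 FPKM in the wild type and 47.76 and 47.43 FPKM in the knockout (−0.41). Aurkb, the kinase of the complex, had 38.49 and 37.80 FPKM in the wild type and 30.40 and 30.92 FPKM in the knockout (−0.31, adjusted p = 0.000276). The scaffold gene Incenp (−0.23) and Aurka (−0.22), the centrosomal Aurora kinase, fell by less.

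All 13 kinetochore and checkpoint genes fell, with a median of −0.39, and 12 of them were also lower with TPM. Spc25 (GRCm38 chromosome 2, positions 69193895 to 69206194, minus strand), a subunit of the NDC80 complex that holds microtubules, had the lowest log2 fold change of the 50 members. It was at 89.89 and 90.94 FPKM in the wild type and at 59.13 and 59.05 FPKM in the knockout, so that the knockout kept 65.4% of the wild-type mean (−0.61, SE 0.03, adjusted p = 6.69e-06). Its partners in the complex were at −0.51 (Nuf2), −0.39 (Spc24) and −0.37 (Ndc80). Cenpa, the histone H3 variant of centromeres, had 68.23 and 67.65 FPKM in the wild type and 55.24 and 55.02 FPKM in the knockout (−0.30, adjusted p = 0.000169). The outer kinetochore genes Cenpf (−0.45) and Cenpe (−0.29) and the spindle-binding gene Knstrn (−0.49) fell as well.

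Checkpoint genes of this role covered a wide range. Mad2l1, whose product binds and restrains CDC20, was at −0.48 and the checkpoint kinase Ttk at −0.46. Bub1, another checkpoint kinase, had 17.34 and 16.96 FPKM in the wild type and 13.51 and 12.71 FPKM in the knockout (−0.36, adjusted p = 0.000593), and Bub1b was at −0.31. Bub3, which recruits both BUB proteins to kinetochores, fell least, from 44.45 and 42.86 FPKM to 39.04 and 39.55 FPKM (−0.15, adjusted p = 0.00869). Its call was lost without knockout replicate 1 (−0.14), without knockout replicate 2 (−0.16) and with TPM (−0.03).

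Of 6 spindle genes 5 fell, with a median of −0.32. Kif4, the X-linked chromokinesin, fell most within the role, from 17.15 and 16.34 FPKM to 11.90 and 11.26 FPKM (−0.50, adjusted p = 0.000176). Exons of Pdzd11 on the opposite strand cover 15.1% of its exonic bases, and Pdzd11 was at −0.11 without passing the test. Kif11, the motor that pushes spindle poles apart, had 39.99 and 39.89 FPKM in the wild type and 28.64 and 29.70 FPKM in the knockout (−0.44). Tpx2, which activates Aurora A on the spindle, had 49.76 and 49.37 FPKM in the wild type and 39.72 and 38.90 FPKM in the knockout (−0.33). Nusap1 (−0.32) and the microtubule depolymerase Kif2c (−0.28) were close to it. Hmmr, a spindle protein first described as a hyaluronan receptor, was at 12.49 and 12.06 FPKM in the wild type and at 10.97 and 11.45 FPKM in the knockout. These groups did not overlap, but the log2 fold change of −0.12 (SE 0.05) had an adjusted p of 0.0663. It passed with libraries rescaled without crystallin and erythroid genes (−0.20) and with median-of-ratios scaling (−0.16).

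The 4 genes of anaphase onset had the median nearest to 0 of the 7 roles, at −0.17. With FPKM 3 of them fell, with TPM 1 did, and with libraries rescaled without crystallin and erythroid genes 4 did. Espl1, which encodes separase, the protease that cuts cohesin, had 11.92 and 11.59 FPKM in the wild type and 9.71 and 9.53 FPKM in the knockout (−0.26, adjusted p = 0.00265). It was the gene that stayed lower with TPM. Cdc20, the APC/C activator, fell from 44.59 and 46.87 FPKM to 40.64 and 38.57 FPKM (−0.20, adjusted p = 0.00505), a call lost without knockout replicate 2 (−0.17). Pttg1, which encodes the separase inhibitor securin, was at 19.24 and 19.98 FPKM in the wild type and at 18.10 and 19.03 FPKM in the knockout. Its log2 fold change of −0.08 did not pass the test (adjusted p = 0.182), and it turned to 0.04 with TPM. With libraries rescaled without crystallin and erythroid genes Pttg1 was called lower (−0.15, limma adjusted p = 0.0186).

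Ube2c, the ubiquitin-conjugating enzyme of the APC/C, lies on chromosome 2 (positions 164769898 to 164778822, plus strand) and shares 22.8% of its exonic bases with Tnnc2, a fast skeletal muscle troponin gene on the opposite strand. It was at 76.34 and 77.67 FPKM in the wild type and at 70.20 and 69.32 FPKM in the knockout (−0.14, adjusted p = 0.00568), and the call was lost without knockout replicate 2 (−0.13). Over the same libraries Tnnc2 rose from 184.48 and 210.40 FPKM to 400.82 and 420.42 FPKM. The use of strand in read assignment was not stated, and how far reads of Tnnc2 enter the value of Ube2c was not tested. Kif20a shares 29.3% of its exonic bases with Cdc23 on the opposite strand, which was at 0.06 without passing the test.

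Genes of chromosome structure fell together, 7 of 7, with a median of −0.36, and all 7 were also lower with TPM. Top2a (GRCm38 chromosome 11, positions 98992943 to 99024189, minus strand), the topoisomerase that untangles sister chromatids, was the most abundant member. It was at 121.36 and 118.84 FPKM in the wild type and at 82.52 and 81.44 FPKM in the knockout (−0.55, SE 0.03, adjusted p = 1.11e-05). Mki67, which encodes the proliferation antigen Ki-67 that coats mitotic chromosomes, had 72.18 and 71.89 FPKM in the wild type and 50.77 and 49.45 FPKM in the knockout (−0.52, adjusted p = 1.78e-05). Processed pseudogenes match 216 bases of Mki67 and, in the cytokinesis group, 488 bases of Racgap1. Top2a and Mki67 fell by more than any of the 5 condensin I genes, which lay close together between −0.39 and −0.32. Ncaph, the kleisin that closes the condensin I ring, had 31.73 and 32.75 FPKM in the wild type and 24.70 and 24.15 FPKM in the knockout (−0.39). Smc4, one of its ATPases, had 62.19 and 61.10 FPKM in the wild type and 49.82 and 48.57 FPKM in the knockout (−0.32). Ncapd2 and Smc2 were both at −0.36 and Ncapg at −0.34.

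Cytokinesis held the widest range of any role, with 5 of 6 members lower and a median of −0.30. Racgap1 (GRCm38 chromosome 15, positions 99620496 to 99651656, minus strand), the GTPase-activating subunit of centralspindlin, had 70.75 and 71.41 FPKM in the wild type and 48.89 and 46.96 FPKM in the knockout (−0.56, SE 0.03, adjusted p = 1.74e-05). Its motor partner Kif23 was at −0.33, the RhoA exchange factor Ect2 at −0.40, the midzone bundler Prc1 at −0.28 and the kinesin Kif20a at −0.20. Anln, which encodes anillin, the scaffold that ties actin, myosin and septins together in the contractile ring, did not separate. It was at 15.13 and 15.90 FPKM in the wild type and at 15.12 and 15.48 FPKM in the knockout, so that the groups overlapped. The log2 fold change of −0.02 (SE 0.04) had an adjusted p of 0.743, and it was positive with TPM (0.10, adjusted p = 0.096).

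Ratios between genes of the same library do not depend on how the library is scaled, and they differed in size of change between pairs of partners. Racgap1 stood at 2.41 and 2.45 times Kif23 in the wild type and at 2.11 and 2.04 times in the knockout. Spc25 over Ndc80 was 3.96 and 4.32 in the wild type and 3.60 and 3.51 in the knockout. In both pairs the knockout ratios lay below the wild-type ratios. By contrast Ccnb1 over Cdk1 moved little, from 2.13 and 2.17 to 2.06 and 2.03. A further 3 pairs set a member with a small change over one with a large change, so their direction is fixed by the choice and only their size is a description. Plk1 over Mki67 went from 0.280 and 0.284 to 0.388 and 0.396, Ube2c over Spc25 from 0.849 and 0.854 to 1.19 and 1.17, and Anln over Racgap1 from 0.214 and 0.223 to 0.309 and 0.330. Cdc20 over Ccnb1 went from 0.934 and 0.963 to 1.13 and 1.08. Of 10 such gene ratios computed, including those 3, none overlapped between groups. Single genes often separated too, with 32.4% of all genes tested lower and 45.6% higher in both knockout libraries than in both wild-type libraries. The direction of each ratio follows from the log2 fold changes of its genes. With 2 libraries against 2 an exact two-sided permutation test cannot give a p below 0.333, the value of each ratio. Several pairs were chosen after the changes were known. Across the 50 members, which share libraries and are not independent, log2 fold change and mean FPKM had a Spearman's rho of −0.27.

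**Figure D4:**
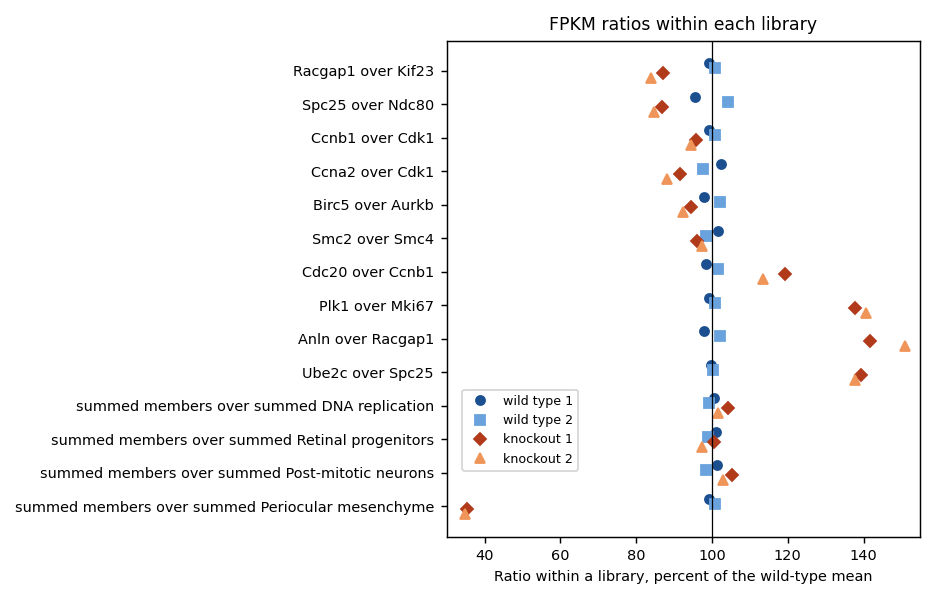
FPKM ratios within each library, drawn as a percentage of the wild-type mean ratio (horizontal axis), for 10 pairs of members and for the summed members against 4 summed gene lists, with 1 symbol per library. Knockout symbols lie near 140% for Plk1 over Mki67, Ube2c over Spc25 and Anln over Racgap1, near 100% against retinal progenitor genes, and near 35% against mesenchyme genes.

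Other genes of mitosis, listed by function but with earlier results of these data known, fell as well but less evenly. Of 120 such genes in 7 lists, 76 were lower and 3 higher, with a median of −0.20. Of all genes tested 21.1% were lower and 33.5% higher. With TPM 51 of the 120 were lower and 16 higher, beside 1667 lower and 6926 higher of all 13887 genes tested. Spindle genes had 19 of 22 lower (median −0.28) and centromere and kinetochore genes 23 of 35 (median −0.29). Spag5, a spindle and kinetochore gene, fell from 36.39 and 35.28 FPKM to 22.91 and 23.91 FPKM (−0.59). The chaperone gene of CENP-A, Hjurp, was at 108.93 and 106.42 FPKM in the wild type and at 113.33 and 112.17 FPKM in the knockout without passing the test (0.07, adjusted p = 0.0904). Among other regulators of mitotic entry and exit 11 of 15 were lower and 1 higher. The kinase gene Pbk fell by 0.71, from 58.34 and 57.54 FPKM to 34.26 and 35.99 FPKM, and Cdc25a was the higher one (0.19).

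Most genes of the APC/C machinery did not pass the test. Of 17 subunits and partners 2 were lower and 2 higher, and the median was −0.04. The lower ones were Anapc15 (−0.38) and the inhibitor Fbxo5 (−0.29), the higher ones Anapc4 (0.10) and Cdc27 (0.11). This split turned on scaling. By TPM 2 were lower and 8 higher, beside 1667 lower and 6926 higher of the 13887 genes tested. After rescaling without crystallin and erythroid genes 9 were lower and 0 higher, beside 4330 lower and 3533 higher of all genes. With FPKM and TPM the shares were near or below those of all genes, so these counts are no result about the list. Cohesin and condensin II had 10 of 14 lower (median −0.15), centrosome duplication 7 of 11 (median −0.21) and further cytokinesis genes 4 of 6 (median −0.19). Of all genes tested 21.1% were lower. By TPM these lists had 5, 3 and 3 lower, beside 12% of all genes, and 2, 1 and 0 higher. Among 14 genes of the MuvB, MYB, E2F4 and NF-Y regulators, 4 were lower and 1 higher with FPKM. These shares were near or below those of all genes tested (21.1% lower, 33.5% higher), so that count is no result about the list. With TPM 2 were lower and 2 higher, beside 12% of all genes lower. This count turned on scaling too. After rescaling without crystallin and erythroid genes 10 were lower and 1 higher, beside 31.2% of all genes lower. Median-of-ratios scaling gave 8 lower and 1 higher, beside 26.5% of all genes lower. The median was −0.10, and 0.01 with TPM. Rbl1 was at −0.40 and Nfya, the higher one, at 0.23. Mybl2, which encodes the B-MYB partner of MuvB, was lower at −0.26.

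**Figure D5:**
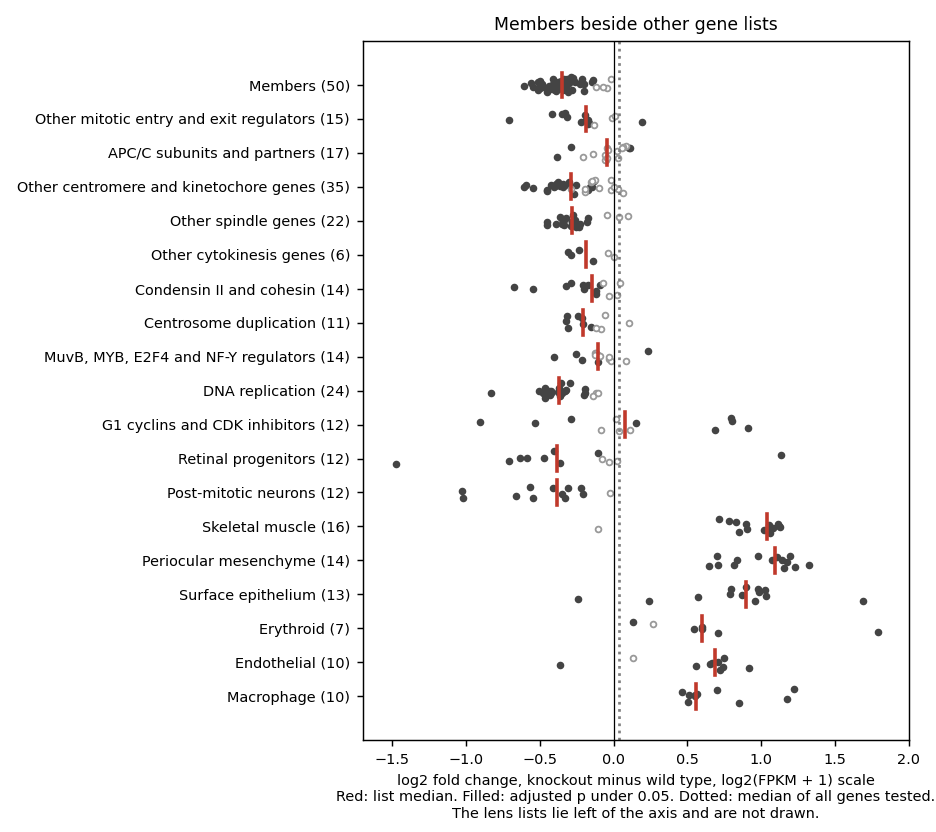
Log2 fold change (knockout minus wild type, log2(FPKM + 1) scale, horizontal axis) of each tested gene, by list, with the number of genes in brackets and the median in red; filled points passed an adjusted p of 0.05. Members, DNA replication, retinal progenitor and neuron genes have medians between −0.35 and −0.38, whereas muscle, mesenchyme, epithelial, blood and vessel genes have medians above 0.5.

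Markers of the cell types that the eye sample could hold moved with the members in some tissues and against them in others. For comparison, 21.1% of all genes tested were lower and 33.5% higher. Genes of DNA replication, which act in the S phase before mitosis, had 21 of 24 lower and 0 higher, with a median of −0.37. Retinal progenitor markers had 8 of 12 lower and 1 higher (median −0.38), with Dapl1 at −1.47 and Sfrp2 at 1.13. Markers of post-mitotic neurons had 11 of 12 lower (median −0.38). All 16 crystallins and all 10 lens fibre genes were lower, with medians of −3.51 and −2.78. Most markers of tissues outside the retina and lens were higher. Those of periocular mesenchyme had 14 of 14 higher (median 1.09), skeletal muscle 15 of 16 (1.04), surface epithelium 12 of 13 (0.90), endothelium 8 of 10 (0.69), erythroid cells 6 of 7 tested (0.60) and macrophages all 10 tested (0.56). Krt12 of the epithelial list (−0.24) and Kdr of the endothelial list (−0.37) were lower.

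Summed in each library, members and progenitor markers stood in proportions that overlapped between the groups. The 50 members summed to 1962 and 1954 FPKM in the wild type and to 1514 and 1496 FPKM in the knockout. Retinal progenitor markers summed to 823.8 and 836.4 FPKM in the wild type and to 638.7 and 651.5 FPKM in the knockout. Their ratio was 2.38 and 2.34 in the wild type and 2.37 and 2.30 in the knockout, with overlapping groups and an exact two-sided permutation p of 0.667. With 2 libraries against 2 that test cannot go below 0.333, so it cannot show that the proportion was unchanged. The ratios that follow did not overlap between groups and had a p of 0.333 each by the same test. Against DNA replication genes the ratio was 2.15 and 2.12 in the wild type and 2.23 and 2.17 in the knockout, and against neuron markers 2.86 and 2.77 in the wild type and 2.96 and 2.89 in the knockout. Mesenchyme markers, which summed to 1648 and 1616 FPKM in the wild type and to 3568 and 3591 FPKM in the knockout, gave a ratio of 1.19 and 1.21 against 0.424 and 0.417. The part of this change in tissue makeup in the fall of the mitotic genes was not tested.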

How the data were processed

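Per the labels' protocols, Trizol was used to extract total RNA from the eye tissue, and Illumina libraries were sequenced. Each library has its own table, in which the authors deposited FPKM values and TPM values per the file headers, with 18702 genes in each. Builds GRCm38 and GRCh38 and the tools HISAT2, TopHat, Cufflinks and DESeq appear in the submitters' processing notes. The sources used here do not state which of these gave the values, nor the annotation, filters or strand setting. FPKM divides by all fragments, so a fall of abundant transcripts raises all other values. Groups and replicate numbers come from the sample titles.

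The tables hold no read counts. Low FPKM values of single-transcript genes (338 to 362 per library) lay on steps that gave the depth. Of these, 56.7% to 61.7% lay within 0.15 of a whole number where chance gives 30.0%, too few to recover counts. The depth was taken from these same values, so that contrast is no independent support for it. At that depth replicates differed more than counting noise (chi-square per gene 1.98 in the wild type and 1.84 in the knockout) and were kept as 2 replicates. Knockout and wild type were compared in R 4.3.3 by limma-trend (limma 3.58.1) on log2(FPKM + 1), over the 13887 genes whose mean reached 1 FPKM, with no term but genotype. Tests were two-sided with Benjamini-Hochberg adjustment over all genes and a threshold of 0.05. Degrees of freedom were 2 residual and 4.89 prior, and the code was tested on simulated data. Per-library values are given in place of mean ± SD.

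Members, roles and lists were chosen with earlier results of these data known. Members given with values in every library are, in each role, those with the lowest and highest log2 fold change and the highest mean, plus 14 set by name. Single genes of other lists, and those with a fold change only, were chosen with their values seen. Positions, exon overlaps and copies (at least 97% identity over 200 bases, by BLAST) come from GENCODE M21 on GRCm38, promoters from RefSeq. Python 3.11.15, numpy 2.4.6, pandas 2.3.3 and scipy 1.17.1 were used. Alternatives were a pseudocount of 0.1, no filter, a floor of 5 FPKM in 2 or more libraries, TPM, both rescalings, the replicate number as a block, and each library left out.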

Additional observations from a re-analysis of the deposited data

How the results depend on the processing

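The count of members lower in the knockout was 46 with a pseudocount of 0.1, without a filter, with a floor of 5 FPKM in 2 or more libraries and with the replicate number as a block, 41 with TPM, 49 and 47 with the rescaled and median-of-ratios values, and 43 to 46 with a library left out. No member was higher in any of these. The median log2 fold change of the members was −0.36 with a pseudocount of 0.1, −0.24 with TPM, −0.43 with libraries rescaled without crystallin and erythroid genes, −0.39 with median-of-ratios scaling, and −0.36 to −0.34 with a library left out. Over all genes 1667 were lower with TPM against 2932, and 80.6% of called genes were higher with TPM, 44.9% with rescaled libraries and 51.6% with median-of-ratios scaling, against 61.3% with FPKM. The sign turned for Plk1 (0.073), Pttg1 (0.041) and Anln (0.099) with TPM. Over the fits with a library left out, Anln ranged from −0.052 to 0.015, and was positive without wild-type replicate 2. None of these passed the test. The replicate numbers do not pair the libraries by the labels, and the correlation of same-numbered deviations over genes was 0.04. With the block 7828 genes were called against 7586, the member median was −0.35, and no member's call changed. The number of libraries, 2 a group, limits the precision.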

Other observations

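Genes that act at the passage from G1 to S, before mitosis, included calls in both directions. Of 12 G1 cyclins, partner kinases and CDK inhibitors, 3 were lower and 5 higher, near the shares of all genes tested (21.1% lower and 33.5% higher), so the counts are no result about the list. They had a median log2 fold change of 0.07 that was 0.20 with TPM, −0.0014 with libraries rescaled without crystallin and erythroid genes and 0.03 with median-of-ratios scaling. Among the D cyclins, which link growth signals to the cell cycle, Ccnd1 fell from 703.17 and 711.02 FPKM to 378.74 and 374.31 FPKM (−0.91), whereas Ccnd2 rose from 25.27 and 26.59 FPKM to 49.24 and 49.82 FPKM (0.91) and Ccnd3 from 75.97 and 71.92 FPKM to 126.96 and 131.09 FPKM (0.80). The CDK inhibitor genes Cdkn1c (228.75 and 231.73 to 399.94 and 403.43 FPKM, 0.80) and Cdkn1a (29.42 and 30.36 to 49.31 and 47.94 FPKM, 0.68) rose, and Cdkn2c fell (25.60 and 25.30 to 16.81 and 17.83 FPKM, −0.53). These 6 calls held with TPM and with both rescalings. The rise of Cdkn1b (0.15) did not pass under either rescaling of FPKM.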
